A study of Mus musculus with 6 samples.

Results

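The acyl-CoA synthetases join a fatty acid to coenzyme A and so activate it for later uses, from oxidation in mitochondria to storage as triglyceride. The members described here are the 5 long-chain synthetases (Acsl1, Acsl3, Acsl4, Acsl5 and Acsl6) and the 3 short-chain synthetases, which activate acetate or propionate (Acss1, Acss2 and Acss3). They were chosen by gene symbol, and all 8 are among the 19241 genes of the deposited expression table. The libraries come from RNA of the total interscapular brown adipose tissue (iBAT) of newborn mice, sequenced in bulk, and are called WT1 to WT3 and KO1 to KO3 by group and replicate number. The WT group (3 libraries) carries the genotype Fstl1-floxed, that is, an Fstl1 gene flanked by recombination sites, and the KO group (3 libraries) the genotype Myf5-Fstl1 KO, in which Fstl1, the gene of a secreted glycoprotein, is lost in the Myf5 lineage. Myf5 marks precursors of skeletal muscle and of much of the interscapular brown fat, so other cells of the depot can keep the gene. Strain, sex, the number of animals behind each library and whether animals were pooled are not given in the sources used here, so the p-values below measure the spread between these libraries.

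In brown fat, long-chain acyl-CoA feeds heat production through the carnitine shuttle and mitochondrial oxidation, and the same acyl-CoA is esterified when lipid droplets are filled. ACSL1 is the long-chain synthetase best known from adipose tissue and from thermogenesis. ACSL3 is linked to the formation of lipid droplets, ACSL4 prefers arachidonate, ACSL5 is found on mitochondria and the endoplasmic reticulum, and ACSL6 is best known from the brain. ACSS1 makes acetyl-CoA from acetate inside mitochondria, ACSS2 does so in the cytosol and nucleus, and ACSS3 is a mitochondrial enzyme that acts on propionate.

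Acsl1 was the one member whose change passed the test, and RefSeq gives it 2 start regions. The stretch of 250 bases before each of its starts is shown because these are the regions upstream of the transcript that changed, together with that of Acss2, the tested member whose log2 level varied most between libraries. Capitals mark the GC box (GGGCGG, either strand) and the NF-Y box (CCAAT, either strand), and no capital stretch is shared by both motifs.
Acsl1, upstream start, chr8:46470787-46471036, plus strand: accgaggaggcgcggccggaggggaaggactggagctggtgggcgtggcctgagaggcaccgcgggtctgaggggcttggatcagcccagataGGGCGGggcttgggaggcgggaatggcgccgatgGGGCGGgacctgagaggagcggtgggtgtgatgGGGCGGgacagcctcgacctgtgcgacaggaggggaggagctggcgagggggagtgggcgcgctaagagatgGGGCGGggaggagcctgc
Acsl1, downstream start, chr8:46490716-46490965, plus strand: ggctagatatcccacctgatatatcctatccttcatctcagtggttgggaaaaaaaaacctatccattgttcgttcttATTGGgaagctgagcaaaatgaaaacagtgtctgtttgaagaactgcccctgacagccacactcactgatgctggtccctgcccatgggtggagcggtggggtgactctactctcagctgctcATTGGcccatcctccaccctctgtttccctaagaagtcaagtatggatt
Acss2, chr2:155517793-155518042, plus strand: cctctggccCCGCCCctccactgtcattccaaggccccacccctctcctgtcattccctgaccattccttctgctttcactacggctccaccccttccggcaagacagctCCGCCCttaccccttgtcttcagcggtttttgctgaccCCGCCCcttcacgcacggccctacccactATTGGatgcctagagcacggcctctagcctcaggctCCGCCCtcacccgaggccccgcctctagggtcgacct
The sequences are RefSeq's, on build GRCm38.p6. The upstream Acsl1 stretch had a G and C content of 72.0%, 20 CpG and 4 GC boxes, and no NF-Y box. The downstream stretch had a G and C content of 48.4%, 2 CpG, 2 NF-Y boxes and no GC box. Acss2 had 4 GC boxes and 1 NF-Y box. Promoter entries were matched for 7 members, with 10 such stretches in all, and Acss3 had no entry. Acsl1 and Acsl6 gave several stretches each, so the counts that follow are of stretches and not of genes. The GC box was in 8 of the 10, against 32.7% of the 32851 stretches in the table, and the NF-Y box in 6 of the 10, against 33.8%. Neither strand of any of the 10 held the letters of a direct-repeat PPAR element (AGGTCA repeated with a single base between, 0.0335% of all stretches), a full cyclic AMP response element (TGACGTCA, 1.55%) or the E-box CACGTG (6.02%). Only these exact letters were searched, and with shares this low their absence from 10 stretches says little. The deposited table gives 1 value per gene, so the 2 Acsl1 starts were not measured apart.

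The values are FPKM, fragment numbers relative to transcript length and to the library's mapped fragments, which allow levels to be compared between genes. Fstl1, the targeted gene, was at 55.52, 130.04 and 54.37 FPKM in WT1, WT2 and WT3, against 7.93, 13.08 and 8.77 FPKM in KO1, KO2 and KO3, so every KO library was below every WT library. All 11 brown adipocyte markers were above 0 in every library. The same held for all skeletal muscle, erythroid, macrophage, endothelium, and fibroblast and preadipocyte markers, so it does not single out brown fat. Every KO library held transcripts of Y-linked genes (Eif2s3y at 83.71 to 99.31 FPKM, against at most 0.08 FPKM in WT) and every WT library held Xist (44.82 to 85.51 FPKM, against at most 0.92 FPKM in KO), so genotype and sex cannot be told apart in any comparison here. WT replicate 3 stood apart by its red cell transcripts, with a summed level of 14405 FPKM over 11 erythroid markers against 3078 to 5074 FPKM in the other libraries. KO replicate 1 stood apart by low muscle transcripts, at 316 FPKM over 12 markers against 1295 to 1877 FPKM. The low FPKM values of short genes fell in steps of whole reads, which put the depth at 13900000 to 15050000 reads per library.

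The family was dominated by Acsl1. It ranked 78 among all 19241 genes by mean FPKM, and it made up 95.3% to 97.5% of the summed FPKM of the 5 long-chain genes in every library. Acss1 followed at 36.5 FPKM over all libraries, then Acsl5 at 18.2 FPKM and Acss2 at 18.1 FPKM, whose ranges overlapped. Acsl4 lay at 9.48 FPKM, Acsl3 at 6.82 FPKM and Acss3 at 2.96 FPKM. The range of Acsl4 over the libraries, 6.82 to 11.27 FPKM, overlapped with those of Acsl3 (5.45 to 9.04 FPKM) and Acss2 (10.13 to 28.8 FPKM), so these neighbours were not separated by their spread. Acsl6 was close to 0.

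**Figure D1:**
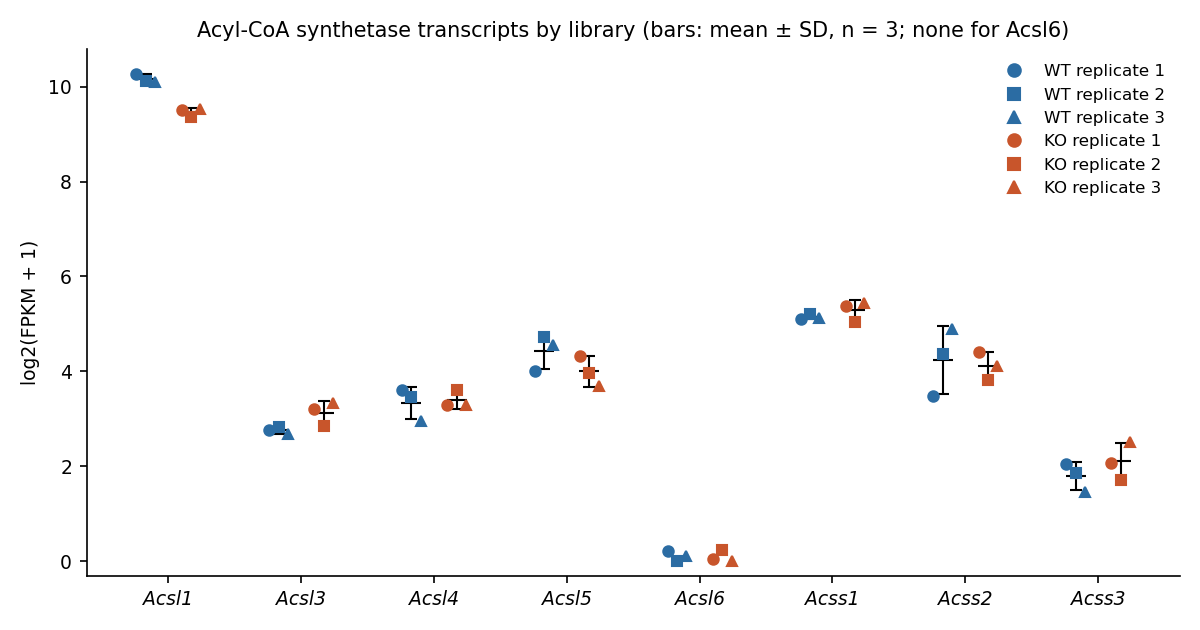
Level of each synthetase gene in each library on the log2(FPKM + 1) scale, WT in blue and KO in orange, with the replicate shown by the marker and bars for mean ± SD of 3 libraries. Acsl1 lies far above the other genes and its 3 KO values lie below its 3 WT values, while Acsl6 lies near 0.

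Acsl1 (Entrez gene 14081, chr8:46471037-46536051) was at 1234.9, 1109.32 and 1087.78 FPKM in WT1, WT2 and WT3, against 729.29, 660.03 and 737.81 FPKM in KO1, KO2 and KO3. The groups did not overlap, and the gap between the lowest WT and the highest KO library was wider than the range within either group. The WT mean was 1144 ± 79.5 FPKM and the KO mean 709 ± 42.7 FPKM (SD, n = 3 each), so KO held 62.0% of the WT mean. Acsl1 fell by 0.69 on the log2(FPKM + 1) scale, with a standard error of 0.13 and a 95% interval from −0.99 to −0.39 (limma, adjusted p 0.0417). Of 13331 genes tested, 295 passed this threshold (2.21%), 134 of them lower (1.01%) and 161 higher (1.21%). Among the 7 members that passed the filter on low values, Acsl1 alone was called.

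The size of the Acsl1 fall changed little between settings, and its call did. Other filters, eBayes options and the replicate block leave this size unchanged by construction. The log2 fold change ran from −0.76 to −0.63 over 16 alternatives, but the adjusted p (limma) ran from 0.0307 to 0.177 and missed the threshold in 9 of them, including all 6 fits that left out 1 library. Without WT replicate 3, the library rich in red cell transcripts, this log2 change stood at −0.72 (limma, adjusted p 0.101), and without KO replicate 1, the library low in muscle transcripts, at −0.71 (limma, adjusted p 0.1).

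In RNA from a whole depot, fewer adipocytes and less Acsl1 RNA per adipocyte cannot be told apart. The 11 brown adipocyte markers had summed levels of 23292 to 28967 FPKM in WT and 22678 to 24584 FPKM in KO, which overlapped. Fabp4, which encodes a fatty acid carrier of adipocytes, was the larger part of every sum. It was at 14058.72 to 17388.98 FPKM in WT and 13999.94 to 15846.38 FPKM in KO. The overlap thus says little about the other markers. Of the 11, 6 were lower and 5 higher in KO, and 1 passed the test. That gene was Plin1, which encodes a lipid droplet coat protein. It was at 246 ± 68.1 FPKM in WT and 93.2 ± 15.1 FPKM in KO (SD, n = 3 each; limma, log2 fold change −1.36, adjusted p 0.0267). No marker of this list passed without the filter on low values, with the replicate block, or without WT2, WT3, KO2 or KO3. Adipoq, which encodes the adipocyte hormone adiponectin, was at 968 ± 98.5 FPKM in WT and 1140 ± 71.9 FPKM in KO, a difference of 0.24 on the log2 scale (limma, adjusted p 0.392). Fabp4 had a log2 fold change of −0.07 (limma, adjusted p 0.85). Adipoq and Fabp4 were picked outside the rule for named genes given below. Ucp1, the uncoupling protein of brown fat, had a log2 fold change of −1.08, with values that did not overlap, and did not pass (limma, adjusted p 0.0804). Of the skeletal muscle markers, 11 were tested and all 11 were lower in KO, with a median log2 fold change of −0.65 and 0 past the threshold (0 at an unadjusted p under 0.05, limma). Their sums overlapped, at 1295 to 1877 FPKM in WT and 316 to 1719 FPKM in KO. With KO1 left out these markers had a median of 0.07, and Acsl1 was at −0.71 (limma, adjusted p 0.1). Of 10 erythroid markers tested, 6 were lower and 4 higher, with a median of −0.34 and 0 past the threshold (0 at an unadjusted p under 0.05, limma). With WT3 left out that median was 0.01, and Acsl1 was at −0.72 (limma, adjusted p 0.101). The part of cell composition in the Acsl1 result was not tested.

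The other long-chain genes did not pass. Acsl3 (Entrez gene 74205, chr1:78657825-78707743) was at 5.77, 6.13 and 5.45 FPKM in WT1, WT2 and WT3, against 8.25, 6.25 and 9.04 FPKM in KO1, KO2 and KO3. The groups did not overlap, but KO replicate 2 lay only just above the highest WT library. Its log2 fold change was 0.37 with a 95% interval from 0.0009 to 0.741, and the change did not pass (limma, unadjusted p 0.0496, adjusted p 0.259). Non-overlapping groups were common: they were seen in 2 of the 7 tested members and in 24.9% of all genes tested. An unadjusted p under 0.05 was found for 2 of the 7 members and for 19.2% of all genes tested.

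Acsl5 (Entrez gene 433256, chr19:55251861-55296628) was at 15.14, 25.54 and 22.52 FPKM in WT1, WT2 and WT3, against 19.14, 14.74 and 11.91 FPKM in KO1, KO2 and KO3. The groups overlapped, because WT replicate 1 lay below KO replicate 1. The log2 fold change was −0.43 with a 95% interval from −0.95 to 0.08 (limma, adjusted p 0.342). That interval holds both no change and a fall as large as that of Acsl1.

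Acsl4 (Entrez gene 50790, chrX:142317993-142390802) is the X-linked member, and the sexes of the groups differ. It was at 11.23, 9.99 and 6.82 FPKM in WT1, WT2 and WT3, against 8.81, 11.27 and 8.77 FPKM in KO1, KO2 and KO3. The ranges overlapped, with the lowest value in WT replicate 3. The log2 fold change was 0.05 with a 95% interval from −0.39 to 0.50 (limma, adjusted p 0.916), and it turned to −0.14 without WT replicate 3 and to −0.05 without KO replicate 2.

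Acsl6 (Entrez gene 216739, chr11:54303805-54364756) was at 0.17, 0 and 0.08 FPKM in WT1, WT2 and WT3, against 0.03, 0.19 and 0 FPKM in KO1, KO2 and KO3. From the estimated depth and the transcript lengths these values come to at most 16.5 reads in a library. Acsl6 was thus at the edge of detection in both groups, did not enter the test, and no fold is given. The low level held in WT replicate 3, at 0.08 FPKM, where the erythroid markers were highest.

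Taken as a sum, the 5 long-chain genes were at 1267, 1151 and 1123 FPKM in WT1, WT2 and WT3, against 766, 692 and 768 FPKM in KO1, KO2 and KO3. The mean difference between KO and WT was −438 FPKM, of which −435 FPKM was Acsl1. The sum of the other 4 genes overlapped between the groups, at 36.3 ± 4.83 FPKM in WT and 32.8 ± 3.27 FPKM in KO (SD, n = 3 each). The share of Acsl1 in the long-chain sum was 97.5%, 96.4% and 96.9% in WT and 95.3%, 95.3% and 96.1% in KO. All 3 KO shares lay below all 3 WT shares (exact two-sided permutation test, p 0.1, the smallest that 3 against 3 can give). With the sum of the other 4 genes overlapping, this share largely restates the fall of Acsl1.

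**Figure D2:**
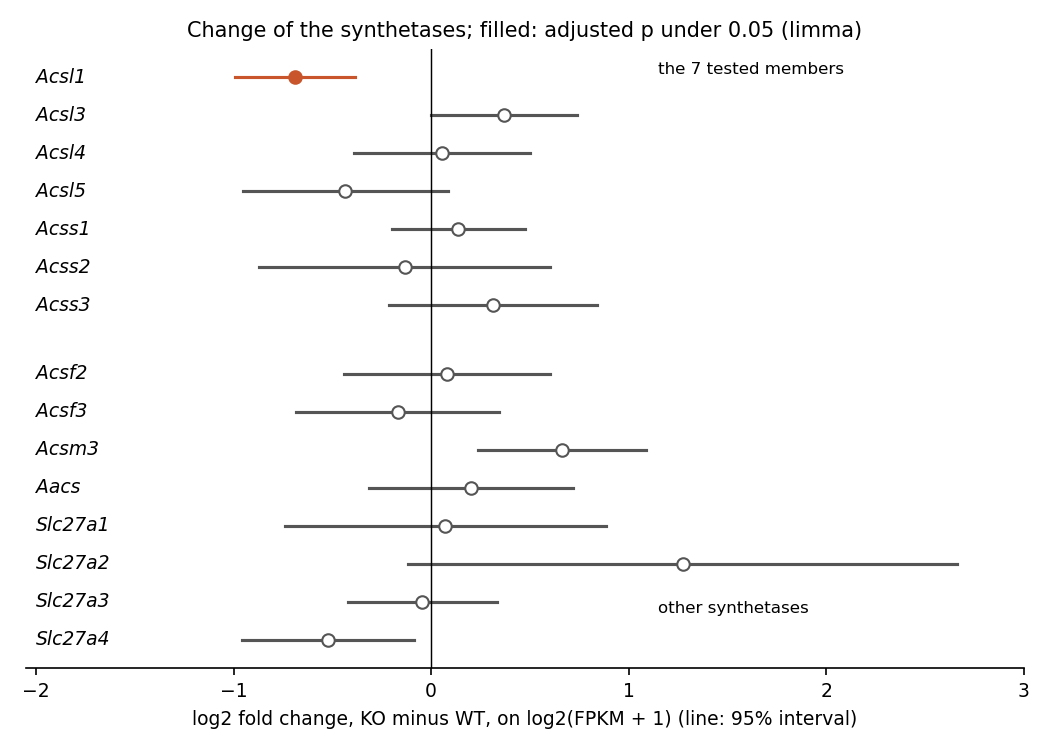
Log2 fold change of KO against WT with its 95% interval for the 7 tested members (upper rows) and 8 other acyl-CoA synthetase genes (lower rows). Only Acsl1 is filled, for an adjusted p under 0.05, and its interval of −0.99 to −0.39 lies wholly below 0.

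None of the short-chain genes passed the test. Acss1 (Entrez gene 68738, chr2:150618111-150668240) was at 33.66, 36.04 and 34.11 FPKM in WT1, WT2 and WT3, against 40.64, 32.16 and 42.47 FPKM in KO1, KO2 and KO3. KO replicate 2 was its lowest library and the other KO libraries its highest. The log2 fold change was 0.14 with a 95% interval from −0.2 to 0.47 (limma, adjusted p 0.657), so a fall of the size seen for Acsl1 lies outside the interval.

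Acss2 (Entrez gene 60525, chr2:155518043-155562743) varied more within WT than between the groups. It was at 10.13, 19.71 and 28.8 FPKM in WT1, WT2 and WT3, against 20.15, 13.11 and 16.42 FPKM in KO1, KO2 and KO3. Both the lowest and the highest library were WT. The log2 fold change was −0.13 with a 95% interval from −0.87 to 0.60 (limma, adjusted p 0.866), and it turned to 0.19 without WT replicate 3 and to 0.01 without KO replicate 2. The order of the libraries within each group was compared with that of 6 related genes of lipid synthesis, picked with their values known. It was the same for Fasn and Aacs, and differed in 1 or both groups for the other 4, Slc25a1, Acly, Acaca and Hmgcs1. Fasn, which encodes fatty acid synthase, was at 10.27, 30.82 and 54.16 FPKM in WT1, WT2 and WT3, against 56.83, 19.52 and 33.94 FPKM in KO1, KO2 and KO3. Aacs, the acetoacetyl-CoA synthetase of the cytosol, was at 3.59, 5.99 and 6.27 FPKM in WT and 7.21, 4.52 and 6.82 FPKM in KO. Neither passed the test between groups.

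Acss3 (Entrez gene 380660, chr10:106933514-107123761) was at 3.14, 2.62 and 1.77 FPKM in WT1, WT2 and WT3, against 3.21, 2.3 and 4.72 FPKM in KO1, KO2 and KO3. The groups overlapped, and KO replicate 3 was the highest library. The log2 fold change was 0.31 with a 95% interval from −0.22 to 0.84 (limma, adjusted p 0.502). Acsl3, Acss1 and Acss3, and Acsl1 as well, had their lowest KO value in replicate 2 and their highest in replicate 3.

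The short-chain sum did not separate the groups, at 56.7 ± 9.0 FPKM in WT and 58.4 ± 9.38 FPKM in KO (SD, n = 3 each). Set against the long-chain sum it did. The short-chain sum came to 3.7%, 5.07% and 5.76% of the long-chain sum in WT replicates 1, 2 and 3 and to 8.36%, 6.87% and 8.29% in KO replicates 1, 2 and 3 (exact two-sided permutation test, p 0.1, the smallest possible). Every KO ratio was above every WT ratio. Since the ratio is taken within a library, it does not depend on how libraries are scaled. Acsl1 made up 95.3% to 97.5% of the long-chain sum, so this separation largely restates the fall of Acsl1. It is not a separate result. The share of Acss1 in the short-chain sum overlapped, at 62.1% ± 9.5 in WT and 66.0% ± 2.17 in KO (exact two-sided permutation test, p 0.6). These were the 3 ratios compared, with Benjamini-Hochberg adjusted permutation p of 0.15 for the Acsl1 share, 0.15 for the ratio of the sums and 0.6 for the Acss1 share.

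**Figure D3:**
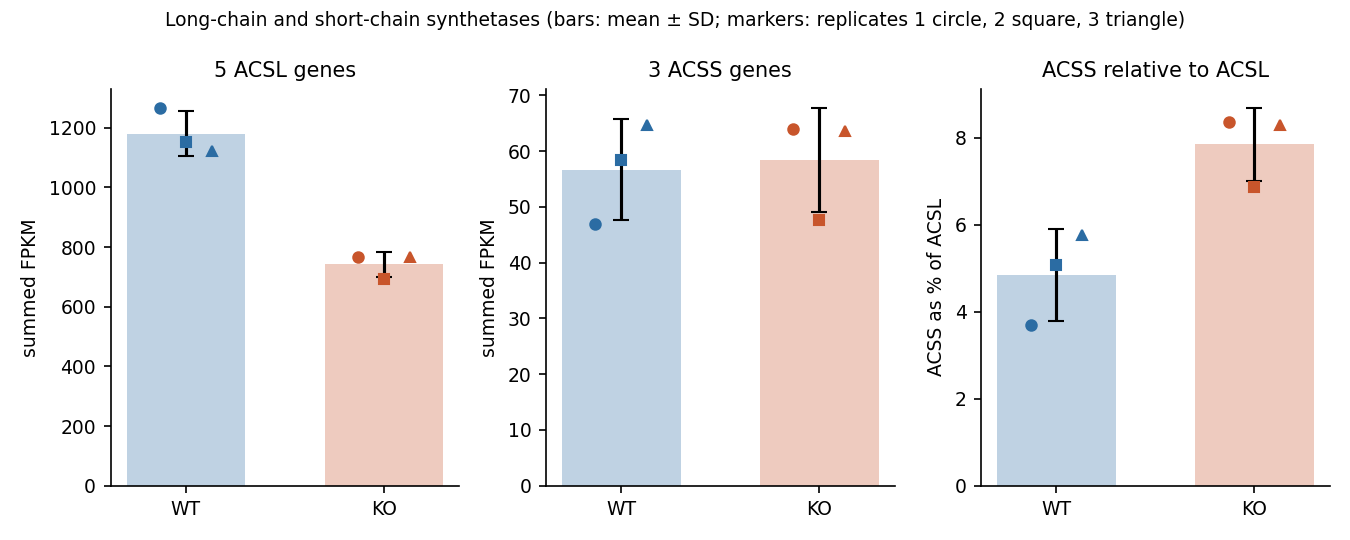
Summed FPKM of the 5 long-chain genes (left) and the 3 short-chain genes (middle), and the second as a percent of the first (right), with a bar for the group mean, SD over 3 libraries and a marker per library. The long-chain sums of KO lie at 692 to 768 FPKM, below the WT sums of 1123 to 1267 FPKM, while the short-chain sums overlap.

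The 7 tested members were split in direction, 3 lower and 4 higher in KO, with a median log2 fold change of 0.05, beside a median of 0.01 over all genes tested. Of 16 further acyl-CoA synthetase genes, 14 were in the table and 8 were tested, with 3 lower, 5 higher, a median of 0.08 and 0 past the threshold (2 at an unadjusted p under 0.05, limma). The smallest p among them was that of Acsm3, a medium-chain synthetase, at 0.903 ± 0.414 FPKM in WT and 1.98 ± 0.359 FPKM in KO (SD, n = 3 each; limma, log2 fold change 0.66, adjusted p 0.105). Slc27a4, a fatty acid transport protein with synthetase activity, came next, with a log2 fold change of −0.52 (limma, adjusted p 0.19).

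The next lists hold enzymes that undo or use the product of the synthetases, and most of their genes did not pass. Over all genes tested 48.4% were lower in KO, the background for the counts of direction here. Of 15 thioesterase genes, whose enzymes split acyl-CoA back into acid and coenzyme A, 12 were tested, with 9 lower, 3 higher and a median log2 fold change of −0.35. One passed: Acot1, a cytosolic long-chain thioesterase, fell from 35.6 ± 6.07 to 17.4 ± 4.38 FPKM (SD, n = 3 each; limma, log2 fold change −1.0, adjusted p 0.0435). Acot1 lies in a cluster of close copies with Acot2 to Acot6, between which reads can be split, so its value is uncertain. Acot4 was next (log2 fold change −0.95, limma, adjusted p 0.0526). Acot1 missed the threshold in 8 of 16 alternatives, among them the fits without WT2, WT3, KO1 or KO2 (limma, adjusted p up to 0.184). Acot4 passed in 3 of 16, with the filter at 5 FPKM, with robust eBayes and without KO3 (limma, adjusted p 0.0375, 0.0383 and 0.0338).

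Of 16 genes that use acyl-CoA to build glycerolipids, 15 were tested, with 11 lower, 4 higher and a median of −0.23. Agpat2, an acyltransferase of triglyceride synthesis, passed, at 231.83, 528.81 and 621.1 FPKM in WT1, WT2 and WT3, against 145.59, 101.3 and 53.46 FPKM in KO1, KO2 and KO3. KO held 21.7% of the WT mean of Agpat2, beside 62.0% for Acsl1 (limma, log2 fold change −2.18, adjusted p 0.0417). The Agpat2 call was lost in 7 of 16 alternatives, namely without the filter, with robust eBayes, with the replicate block and without WT2, WT3, KO2 or KO3, with an adjusted p (limma) of up to 0.173. Its log2 fold change ran from −2.62 to −1.8. Agpat1, its relative, did not pass (−0.69, limma, adjusted p 0.102), except without WT1 (limma, adjusted p 0.0418). The test was not passed by any gene of acyl-CoA binding and the carnitine shuttle, where 11 were tested, 8 lower and 3 higher (2 at an unadjusted p under 0.05, limma). Among these, Acbd4, an acyl-CoA binding protein, had a log2 fold change of −0.75 (limma, adjusted p 0.153, or 0.0353 without WT1) and Slc25a20, the carnitine carrier of mitochondria, one of −0.39 (limma, adjusted p 0.249). Called genes were thus 1 of 12 and 1 of 15 in the first 2 of these lists, where 2.21% of all genes were called.

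Around acetyl-CoA, 14 genes were tested, with 10 lower, 4 higher, a median of −0.14 and 0 past the threshold (1 at an unadjusted p under 0.05, limma). Hmgcs1, an enzyme of cholesterol synthesis, had the smallest p, at 125 ± 40.3 FPKM in WT and 67.6 ± 16.8 FPKM in KO (SD, n = 3 each; limma, log2 fold change −0.85, adjusted p 0.132). Pdhb, a subunit of pyruvate dehydrogenase, followed (−0.3, limma, adjusted p 0.287). For the 6 genes of propionyl-CoA breakdown, the pathway downstream of ACSS3, 5 were lower and 1 higher, with a median of −0.05 and 0 past the threshold (0 at an unadjusted p under 0.05, limma). Their smallest p belonged to Pccb, a subunit of propionyl-CoA carboxylase (0.1, limma, adjusted p 0.714), and then Mmab, an enzyme of cobalamin metabolism (−0.12, limma, adjusted p 0.766). For polyunsaturated acyl chains and ferroptosis, the setting in which ACSL4 is best known, 7 of 8 genes were tested, with 5 lower, 2 higher and 0 past the threshold (0 at an unadjusted p under 0.05, limma). Alox12, a lipoxygenase (−0.35, limma, adjusted p 0.27), and Aifm2, a ferroptosis suppressor (0.33, limma, adjusted p 0.323), had the smallest p.

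Of 14 regulators, 6 were lower and 8 higher, with a median of 0.04 and 0 past the threshold (5 at an unadjusted p under 0.05, limma). Insig1, which holds back the sterol-sensing transcription factors, was at 16.03, 20.33 and 18.47 FPKM in WT1, WT2 and WT3, against 30.99, 26.6 and 40.49 FPKM in KO1, KO2 and KO3. Its groups did not overlap, but the change did not pass (limma, log2 fold change 0.79, adjusted p 0.0624). It did pass in 2 of 16 alternatives, with the filter at 5 FPKM (limma, adjusted p 0.0454) and with robust eBayes (limma, adjusted p 0.0494). Sirt1, a deacetylase known to activate ACSS2, had a log2 fold change of 0.82 (limma, adjusted p 0.0969, or 0.04 without WT1).

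**Figure D4:**
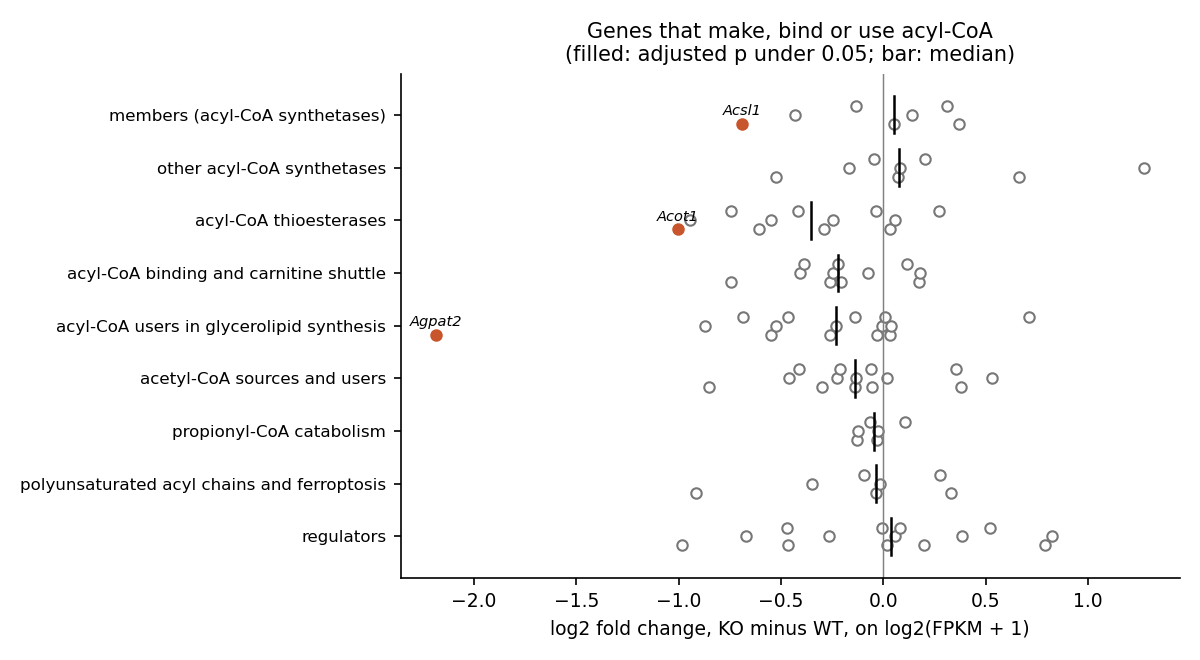
Log2 fold change of KO against WT for each tested gene of the family and of 8 lists of related genes, with filled points for an adjusted p under 0.05 and a bar at the median of each list. Acsl1, Acot1 and Agpat2 are the filled points, all below 0.

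The genes whose pattern over the 6 libraries was most like that of Acsl1 were found by the root-mean-square difference between their deviations from their own mean on the log2(FPKM + 1) scale. The closest was Cyp2u1, a cytochrome P450 that acts on fatty acids, at 0.0528. Arc followed at 0.0629, Them4, a thioesterase of the list above, at 0.0688, Mir7034 at 0.0692 and Timm8a1, a mitochondrial import protein, at 0.0709, where the deviations of Acsl1 itself had a root-mean-square of 0.353. Them4 was at 11.46, 11.42 and 11.3 FPKM in WT1, WT2 and WT3, against 7.37, 6.42 and 7.66 FPKM in KO1, KO2 and KO3, with a log2 fold change of −0.61 (limma, adjusted p 0.0591). Arc and Cyp2u1 have low levels, at most 3.06 FPKM in any library, Mir7034 is a short feature that few reads support, and Timm8a1 is X-linked. Mir7034 alone among these genes passed the test (limma, log2 fold change −0.66, adjusted p 0.0435). KO held 26.5% of the WT mean FPKM for Arc, 51.2% for Cyp2u1 and 50.6% for Mir7034. For Them4 this was 62.8%, for Timm8a1 65.0% and for Acsl1 62.0%. The low genes thus fell further than the log2(FPKM + 1) scale shows.

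**Figure D5:**
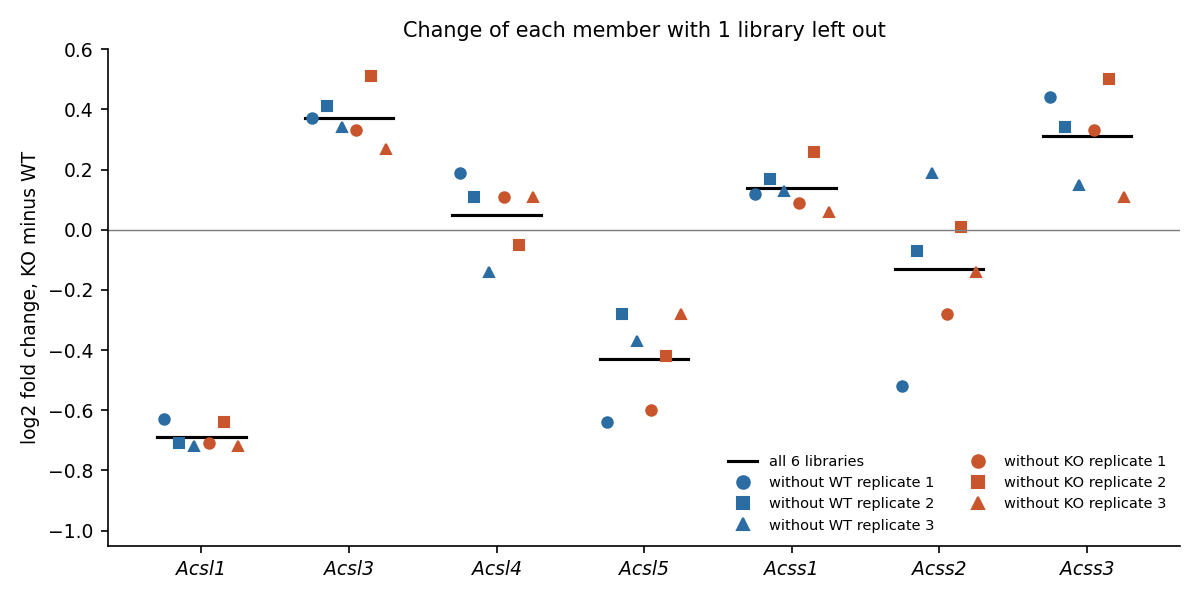
Log2 fold change of KO against WT for each tested member with all 6 libraries (line) and with 1 library left out (markers, shaped by replicate and coloured by group). Acsl1 stays between −0.72 and −0.63, whereas Acsl4 and Acss2 change sign.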

How the data were processed

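RNA from whole interscapular brown fat of newborn mice was sequenced in 6 libraries, grouped as WT and KO by their titles. The deposited values are FPKM, per the file headers, rounded by the authors. The submitters' processing notes name HISAT2 2.0.4, Bowtie2 2.2.5, DESeq2 and the build mm10, with no role. The counting tool, annotation and strand handling are not given in the sources used here. No value column was left out.

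Since FPKM cannot enter a count model, log2(FPKM + 1) was fitted with limma 3.58.1 in R 4.3.3 (eBayes with a trend, no covariates) for genes that averaged 0.5 FPKM or more, with Benjamini-Hochberg adjustment over 13331 genes and a threshold of 0.05. Fold changes on this scale understate the change of low genes. Ratios within a library were compared with an exact permutation test in scipy 1.17.1. On simulated data with 13331 genes, the fit called 182 of 200 genes changed by 1.5 on the log2 scale, with 4 false calls. This change is larger than that of any member, so it does not show how often changes of the members' size are called. Depth was estimated from low values of single-transcript genes of GENCODE vM21: 77.1% to 81.0% lay within 0.2 reads of a whole number, against 39.4% to 43.2% with lengths shuffled. This holds for those genes, so no count test was run.

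Gene positions and promoter sequences are RefSeq's on GRCm38.p6, the assembly of mm10, matched by Entrez identifier. The members and lists were chosen with earlier results of these data known. The genes named by rule are all members, Fstl1, Ucp1, sex-linked checks and the 5 genes most like a called member. In each list of related genes they are also every gene past the threshold and the 2 with the smallest p. The other genes named, among them Adipoq, Fabp4, Plin1, Ly6a, Fasn, Aacs and Slc27a2, were picked outside this rule. Alternatives were fits with no filter or one at 5 FPKM, pseudocounts of 0.1 and 0.01, quantile, median-of-ratios and common-sum scaling, eBayes without the trend or robust, a replicate block, and leaving out each library. The marker lists were brown adipocyte, skeletal muscle, erythroid, macrophage, endothelium, Schwann cell and nerve, epidermis, and fibroblast and preadipocyte.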

Additional observations from a re-analysis of the deposited data

How the results depend on the processing

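Acsl1 kept its direction in all 16 alternatives. Since its groups did not overlap, leaving out 1 library could not have reversed it. Its log2 fold change missed the threshold without the filter on low values (−0.69; limma, adjusted p 0.112), with a common FPKM sum (−0.66; 0.0541), with the replicate block (−0.69; 0.0775) and without any single library, from −0.72 to −0.63 (adjusted p 0.0559 to 0.177). The last of these fits hold fewer samples, and the cause of the lost calls was not tested for any of them.

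The number of genes called, 295, was 35 without the filter, 191 with a common FPKM sum, 167 with the replicate block and 31 to 370 with 1 library left out. Leaving out WT3 gave the 31 and leaving out WT1 the 370. Genes lower in KO were 45.4% of the 295, against 25.8% when KO2, 29.9% when KO3 and 55.4% when KO1 was left out. The cause was not tested.

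Acsl4 ran from −0.14 to 0.19 and Acss2 from −0.52 to 0.19 with 1 library left out. The difference in the Acss1 share ran from −0.777 to 8.72 percentage points, reversing without WT replicate 3. The replicate numbers were not taken to pair the libraries: across genes, the deviations of WT1 and KO1 from their means correlated at 0.0681, those of WT2 and KO2 at 0.0433 and those of WT3 and KO3 at 0.0433. A replicate block cannot change a difference between these group means. It was thus no check on the Acsl1 share (−1.34 points) or on the ratio of the sums (2.99 points). In the fits of single genes, the block brought Hmgcs1 past the threshold (limma, log2 fold change −0.85, adjusted p 0.0498 against 0.132 without it). It ended the calls of Acot1 (limma, adjusted p 0.0569) and Agpat2 (limma, adjusted p 0.068). Fstl1 missed the threshold without the filter on low values (limma, adjusted p 0.0606) and passed in the other 15 alternatives.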

Other observations

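Markers of cells other than brown adipocytes, muscle and red cells, which are given above, were measured beside the members. Of 10 macrophage markers all 10 were higher in KO and 0 passed the test (4 at an unadjusted p under 0.05, limma), with summed levels of 140 to 208 FPKM in WT and 196 to 270 FPKM in KO. Of 8 fibroblast and preadipocyte markers 6 were higher and 2 lower. The one that passed was Ly6a, a surface marker of progenitor cells, singled out after its values were seen. Its log2 fold change was 0.99 (limma, adjusted p 0.0332). No marker of this list passed without the filter on low values or without WT2, WT3, KO1, KO2 or KO3. The list's sums overlapped, at 1172 to 1527 FPKM in WT and 1265 to 2119 FPKM in KO. The sums also overlapped for endothelium (545 to 732 FPKM in WT, 554 to 631 FPKM in KO), Schwann cell and nerve (73.6 to 78.6 FPKM and 59.8 to 85.1 FPKM) and epidermis (2.89 to 5.54 FPKM and 4.2 to 5.61 FPKM). The part of these cells in the members' values was not tested.

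Slc27a2, a fatty acid transport protein with synthetase activity, had the widest spread among the related synthetases and was singled out after its values were seen. It was at 13.2, 23.72 and 25.37 FPKM in WT1, WT2 and WT3, against 46.34, 17.98 and 144.88 FPKM in KO1, KO2 and KO3. The groups overlapped through KO replicate 2, and KO replicate 3 set the size of the difference (limma, log2 fold change 1.27, adjusted p 0.299).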
